A study of Bos taurus with 81 samples.

Results

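The clustered H3K27ac domains of the bovine trophectoderm are 1119 stretches of the 29 autosomes in which peaks of histone H3 acetylated at lysine 27 lie close together. They were chosen from the H3K27ac peak lists of the trophectoderm (TE), the outer epithelium of the blastocyst. Stretches covered in both TE lists were joined where they lay 12500 bp or less apart, and a joined interval was kept if it was 20 kb or longer and held 8 kb or more of shared peak sequence. Of 15726 joined intervals, 1119 (7.12%) met both limits. Of the 14607 that did not, 726 were long enough but held too little peak sequence, 152 held enough but were too short, and 13729 fell short of both limits.

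Clusters of H3K27ac, called super-enhancers or stretch enhancers in other tissues, are runs of active enhancers and promoters that often surround genes of cell identity. The acetyl group is placed by the enzymes CBP and EP300 and marks elements in use. H3K4me3 marks active promoters, H3K27me3 is the mark of Polycomb repression and H3K9me3 that of heterochromatin. The TE gives rise to the placenta, and in cattle it elongates and secretes the interferon by which the mother recognises pregnancy. The inner cell mass (ICM) gives rise to the fetus and the yolk sac. No annotation on the genome build of the files was used here, so no gene, marker gene or sequence was assigned to a domain, and the TE and ICM labels were not checked against marker genes.

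The series profiled bovine oocytes and in vitro produced embryos with ATAC-seq, where a transposase cuts open chromatin, and CUT&Tag, where an antibody brings that enzyme to a histone mark. The CUT&Tag groups, each with 2 libraries per mark, were oocytes at the germinal vesicle stage (GV), cleavage embryos at 32 h (2C), 44 h (4C) and 56 h (8C) after insemination, named for their cell number, 8-cell embryos cultured to 56 h with 50 μg/ml α-amanitin (8A), morulae (MO, 122 h), blastocysts (BL, 172 h), ICM and TE. The ATAC-seq groups were BL, ICM and TE with 3 libraries each. A library came from about 500 oocytes or 1000 to 1500 blastomeres, the ICM was isolated by immunosurgery and the TE by microsurgical cutting, so tissue and isolation method cannot be told apart. The labels do not say whether replicates came from separate embryo batches, so the p-values measure the spread between these libraries only. One peak list per library was available, sequencing depth was unknown, and in pooled embryos a mark present in fewer cells cannot be told apart from a weaker mark. Coverage below means the percentage of a domain's length that lies under peaks of 1 library. Domains are named D and a number in genome order, with coordinates on ARS-UCD1.2.

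The domains spanned 53.3 Mb, or 2.14% of the autosomes, and contained 43.1% of all bases covered in both TE lists. Their median length was 41.05 kb (20.05 to 195.6 kb), with a median of 16 peak stretches and 13.9 kb of shared peak sequence. A domain was therefore typically a string of short peaks: the median stretch was 0.5 kb long inside domains and 0.45 kb outside them. Only 50 domains reached 100 kb, and 49 held 40 kb or more of shared peak sequence. At the length limit, the nearest domains inside measured 20.05 kb each and the nearest intervals outside 19.95 and 19.9 kb. At the limit of shared sequence, the nearest inside held 8 kb and the nearest outside 7.95 kb.

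The domains were unevenly placed. Chromosome 19 held 86 of them, 1.36 per Mb, followed by chromosome 25 with 1.11 and chromosome 18 with 0.851 per Mb. Chromosome 12 had the lowest density at 0.183 per Mb, and chromosomes 27 and 9 had 0.197 and 0.210. The last 10% of a chromosome's length held 176 domains in all and the first 10% held 88. The median distance to the next domain was 609 kb, and 219 neighbours lay under 100 kb apart. Placement was not counted over all joined intervals, so these values describe the domains and do not set them apart.

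The 5 domains with the most shared TE peak sequence show how different such regions can be in the rest of the series. D0926 (chr22:43172901-43320600) held the most, 85.6 kb of its 147.7 kb. Its H3K27ac coverage was 64.4% and 66.1% in the TE, 73.5% and 72.1% in the ICM, 61.5% and 61.2% in BL and 51.3% and 49.3% in MO. The oocyte had 10.5% and 9.82%, 4C had 0% and 0.508%, and in 8C both libraries were at 0. In D0926 the coverage of every MO, BL, ICM and TE library was above that of every earlier library.

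The longest domain was D0660 (chr16:50507451-50703050), 195.6 kb long with 81.85 kb of shared TE peak sequence. Its H3K27ac coverage was 45.8% and 49.4% in the TE and 48.4% and 44.0% in the ICM, and it too was at 0 in both 8C libraries. Before that it was one of the domains covered by the Polycomb mark, with H3K27me3 over 69.0% and 69.8% of its length at 4C and over 75.03% and 69.0% at 8C, against 0 in both MO libraries. D0892 (chr21:57590251-57769500) had the same course, with H3K27me3 coverage of 83.4% and 86.9% at 8C and 0 at MO, and H3K27ac coverage of 0 in both 8C libraries and of 52.3% and 40.3% at MO.

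D0712 (chr18:2319951-2459100) had H3K27ac before the morula, with 15.5% and 13.98% at 8C against 5.75% and 5.10% in 8A. D0355 (chr7:80329751-80451450) was the only one of these 5 with ICM coverage below 50% of that in the TE, at 31.6% and 33.9% against 66.5% and 67.1%. Its accessible share in ATAC-seq was also higher in the TE, at 39.9%, 53.0% and 39.9% against 14.5%, 18.1% and 13.0% in the ICM.

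Averaged over the 1119 domains, H3K27ac was low through cleavage and rose at the morula. Mean coverage was 15.8% and 16.8% in the GV libraries, 6.86% and 8.56% at 2C and 4.48% and 4.24% at 4C. The 8C libraries had 12.3% and 11.4%. Later coverage was 38.4% and 34.9% at MO, 34.7% and 36.9% in BL and 44.4% and 42.8% in the ICM. The lowest value of any MO, BL or ICM library lay above the highest of any earlier library. Over the 7 groups without inhibitor, TE left out, the groups differed (permutation test with 100000 resamples, p = 4e-05, adjusted over 4 tests 8e-05). The TE values, 43.7% and 44.7%, chose the domains and were not tested. Whole blastocysts contain the TE, so the choice bears on the BL values too.

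Because libraries differed in how much of the genome their lists covered, the same values were set against the autosomes. Domain coverage was 3.03 ± 0.104 times (SD, n = 2) autosome coverage in GV, 2.48 ± 0.117 times at 4C and 3.26 ± 0.165 times at 8C. It was 8.00 ± 0.405 times at MO, 17.1 ± 0.642 times in BL, 11.5 ± 0.298 times in the ICM and 18.7 ± 0.328 times in the TE. BL, which contains the TE, thus stood near it. The ICM lists, which covered 94.7 Mb of the autosomes on average against 58.9 Mb in the TE, were less concentrated in the domains.

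**Figure D1:**
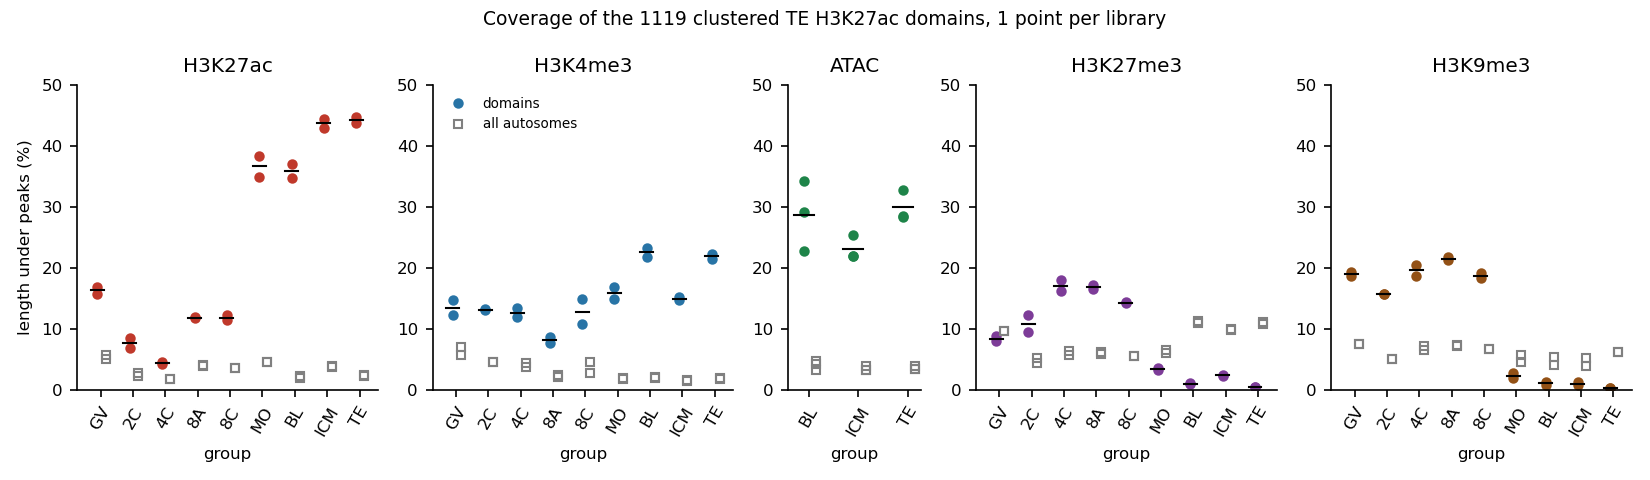
Mean percentage of the length of the 1119 domains under peaks (filled points, 1 per library, black bar the group mean) and percentage of the autosomes under peaks (open squares), by group for 5 assays. H3K27ac steps up at MO, and H3K27me3 and H3K9me3 fall at MO to below their autosome level.

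The step from 8C to MO involved most single domains. Of the 1118 domains tested in limma, 916 (81.9%) were called higher at MO and 35 lower (Benjamini-Hochberg adjusted p under 0.05), with a median difference of 23.7 percentage points. Among all features tested, that is the domains and 20 kb tiles elsewhere, 31.1% were called higher and 25.5% lower, with a median of 0. With every list trimmed to one covered length, 694 were called higher and 65 lower. In 201 domains both 8C libraries were at 0, whereas 4 domains were at 0 in both MO libraries.

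D0085 (chr2:127020701-127054600) had H3K27ac coverage of 0 in both 8C libraries and of 91.7% and 91.0% at MO (limma adjusted p = 1.7e-09). It fell back to 51.0% and 57.4% in BL, and ended with 47.9% and 47.3% in the TE against 16.7% and 21.5% in the ICM. D0845 (chr19:55927601-55950500) went from 0 in both 8C libraries to 94.1% and 95.0% at MO (limma adjusted p = 5.3e-09). That domain lay wholly under H3K27me3 at 4C and 8C, with 100% in all 4 libraries, and had none at MO. In BL its H3K27ac coverage was 32.8% and 44.3%. Both were chosen for the size of this difference.

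The domains lower at MO had a different course. D1016 (chr25:27202051-27238900) had H3K27ac coverage of 72.2% and 78.6% at 8C and of 20.9% and 13.8% at MO (limma adjusted p = 8.8e-07), then 53.7% and 52.2% in BL. D0117 (chr3:23646901-23679950) fell from 51.6% and 53.0% to 1.21% and 2.27% (limma adjusted p = 1.4e-07) and was at 22.1% and 21.6% in BL. D0074 (chr2:121771251-121797150) fell from 71.0% and 63.5% to 19.7% in both libraries. Each of these 3 had more H3K27ac in the TE than in the ICM, and H3K27me3 at MO covered 71.0% and 77.0% of D0074, 30.9% and 26.0% of D0117 and 0% and 0.814% of D1016.

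Between MO and BL the domains went both ways. Of 1118 tested, 238 (21.3%) were called higher in BL and 271 (24.2%) lower in limma, against 3.06% higher and 34.1% lower over all features. This split depended on list length, since the MO lists covered 114 Mb of the autosomes and the BL lists 52.1 Mb on average. With lists trimmed to one length, 503 domains were called higher and 50 lower, so the higher share of calls moved from 46.8% to 91.0%. Without BL replicate 1, 157 were called lower. BL contains the TE, whose lists chose the domains, so an excess of domains higher in BL is in part built into the choice. The counts describe the domains and do not weigh the stages. D0203 (chr5:26971151-27052750) was higher in BL, with 64.0% and 67.2% against 29.5% and 15.7% at MO. D0246 (chr5:113531401-113562550) went from 1.61% and 0% at MO to 47.4% and 48.0% in BL, while its H3K27me3 coverage went from 83.9% and 57.0% to 0 in both libraries.

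Early H3K27ac at the very bases that the TE marked was uncommon in the domains. A domain was called marked at a stage if 50% or more of its shared TE peak bases were covered in both libraries of that stage. GV marked 154 domains (13.8%), 2C 12, 4C 2 and 8C 122 (10.9%). Over all 15726 joined intervals the shares were 34.3% for GV, 5.88% for 2C, 6.76% for 4C and 26.9% for 8C, so at each of these stages the share was lower in the domains than over all intervals. MO marked 757 (67.6%, all intervals 62.5%), BL 1050 (93.8%, all intervals 72.3%) and ICM 886 (79.2%, all intervals 65.5%). BL contains the TE, so its share is not independent of the rule. The 1119 domains held 21538 stretches and the other 14607 intervals 39371. Coverage pooled over more stretches varies less around the mean of its stage, so a 50% limit acts differently on domains and other intervals. They were not matched for this, and whether they differ in early or late marking was not tested. Of the 1119, 566 were first marked at MO and 278 first in BL, 227 were marked at 1 or more of GV, 2C, 4C and 8C, and 37 were marked in none of these groups. These patterns were not counted over all joined intervals, so they describe the domains and do not set them apart.

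Of the 154 domains marked at GV, 1 was marked at 4C, where only 2 of all domains were, and 125 were marked at MO. Marking in the TE is fixed by the rule. How often intervals marked at GV were marked again at MO was not counted over all joined intervals. D0613 (chr15:29503251-29528950) had the highest GV coverage, at 83.1% and 90.3%. It was at 31.3% and 31.9% at 4C, at 12.3% and 10.7% at 8C and at 59.5% and 53.1% at MO. The TE had 88.1% and 81.9% there and the ICM 92.4% and 91.8%. D0960 (chr23:28260701-28287050) ran from 80.3% and 85.6% at GV to 3.42% and 6.07% at 4C and 79.1% and 78.0% at MO. D0080 (chr2:126457551-126480550) ran from 76.7% and 76.1% to 6.09% and 4.78% at 4C.

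**Figure D2:**
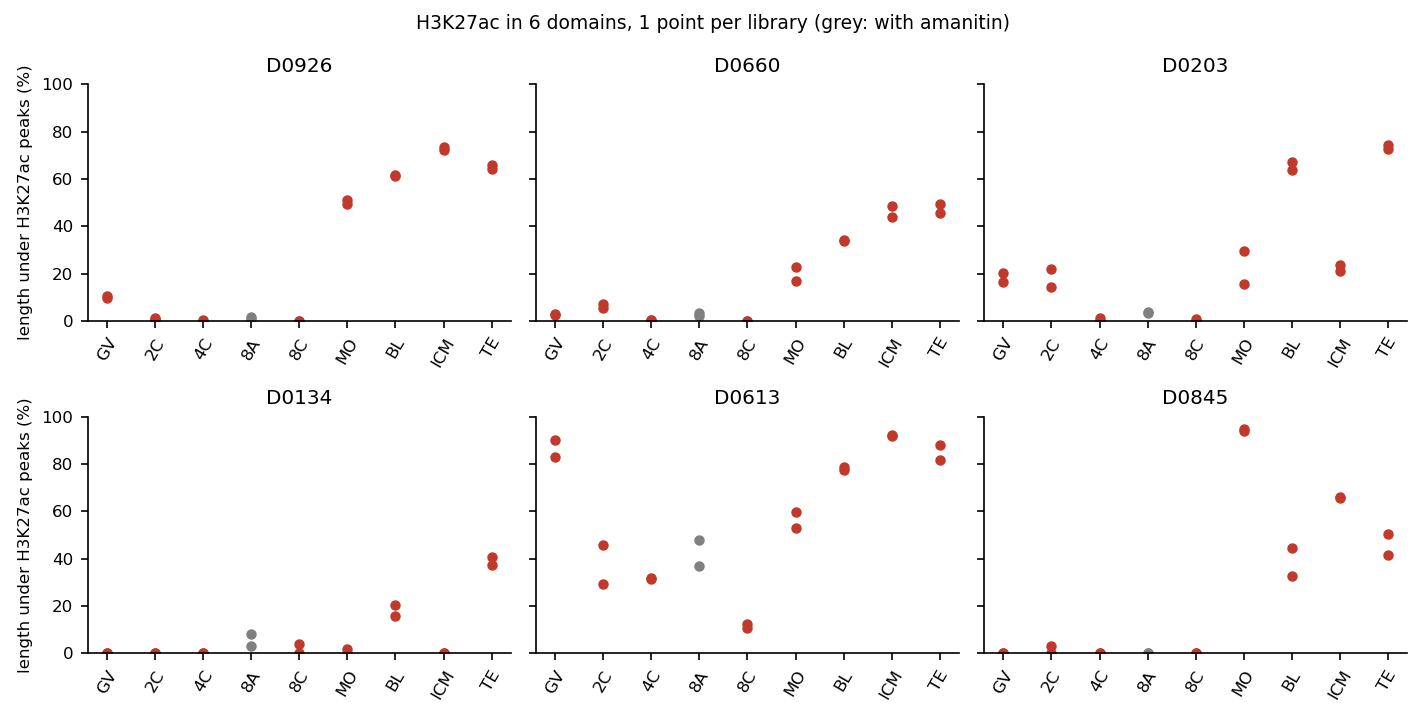
Percentage of length under H3K27ac peaks in 6 domains, 1 point per library, by group. D0845 is at or near 0 through 8C, D0926 and D0660 have no more than 10.5% in any group through 8C, D0613 starts high in GV, and D0203 and D0134 are higher in the TE than in the ICM.

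α-Amanitin blocks RNA polymerase II, and the 8A embryos were compared with 8C embryos of the same age. Mean domain coverage of H3K27ac was 11.9% and 11.8% in 8A against 12.3% and 11.4% in 8C, so the groups overlapped. Of 1118 domains tested in limma, 256 (22.9%) were called higher and 236 (21.1%) lower in 8A, where 28.4% and 18.2% of all features were. The median difference over the domains was 0. With lists trimmed to one length, 169 were called higher and 199 lower, so which direction was the more frequent was not stable.

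Single domains differed widely in both directions. D0287 (chr6:116777601-116806550) had H3K27ac coverage of 54.4% and 65.5% in 8A and of 3.97% and 5.01% in 8C (limma adjusted p = 7.4e-07), and D0514 (chr11:78629051-78670100) had 51.5% and 54.4% against 0% and 1.10%. Both had also been covered at 2C, by 52.3% and 47.5% and by 44.9% and 41.5%. In the other direction, D0270 (chr6:72291301-72315450) had 24.0% and 17.2% in 8A against 66.5% and 64.0% in 8C (limma adjusted p = 0.0004), and D0541 (chr11:106552001-106593950) had 10.3% and 7.51% against 52.6% and 47.9%. D0270 and D0541 had been at 10.4% or less in every 2C and 4C library.

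Over the domains, H3K27ac coverage in the ICM was close to that in the TE at the median. The ratio of mean ICM to mean TE H3K27ac coverage had a median of 1.01, and it ran from 0.320 at the 10th to 1.67 at the 90th percentile. With limits of 0.5 and 2, 201 domains (17.96%) were skewed to the TE, 870 (77.7%) balanced and 48 (4.29%) skewed to the ICM. The same rule applied to the ICM lists gave 2010 domains; 833 of the TE domains (74.4%) touched one, and 817 of the ICM domains (40.6%) touched a TE domain. The ICM lists were longer, 94.7 Mb of the autosomes against 58.9 Mb on average. With the ICM lists trimmed to one covered length, 652 ICM domains were left and 406 of the TE domains (36.3%) touched one. The TE lists trimmed in the same way left 710 domains, and 686 of the TE domains (61.3%) touched one. Trimming thus lowered even the overlap of the TE with its own domains. How far the longer ICM lists account for the fall to 36.3% was not tested. Outside the shared TE bases, the gaps within the domains were covered to 26.1% and 24.6% by ICM H3K27ac and to 9.38% and 11.3% by TE H3K27ac. These H3K27ac values chose the domains or the classes and carry no test.

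At the TE extreme, 8 domains had no H3K27ac in either ICM library, and the first 3 in genome order are described. D0134 (chr3:67030651-67057950) had 37.4% and 40.5% in the TE, 15.6% and 20.3% in BL, 0 in the ICM and at most 1.65% at MO. Its ATAC coverage was 3.30%, 7.88% and 6.96% in the TE and 0 in all 3 ICM libraries. D0575 (chr13:59426351-59456700) had 41.02% and 40.0% in the TE and 0 in the ICM, with ATAC coverage of 17.5%, 16.0% and 17.1% against 2.80%, 2.47% and 2.14%. D0040 (chr1:152337251-152372250) had 28.9% and 35.4% against 0, with ATAC coverage of 18.1%, 26.1% and 22.3% against 3.00%, 6.14% and 4.14%. In all 3 domains every TE library of ATAC, which had no part in choosing them, lay above every ICM library.

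At the ICM extreme, D0887 (chr21:34229151-34288750) had H3K27ac coverage of 68.1% and 66.8% in the ICM against 21.1% and 20.6% in the TE, a ratio of 3.24. It was at 71.0% and 64.5% in MO. D0387 (chr8:89709851-89749200) had 77.3% and 83.1% against 26.3% and 25.2%, and D1083 (chr28:28300351-28342950) had 80.2% and 77.0% against 25.5% and 31.2%. All 3 were also above 59.0% in both MO libraries, so the lower TE coverage followed high morula coverage there.

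Accessibility, which took no part in the choice, was higher in the TE than in the ICM over the domains. Mean ATAC coverage was 28.5%, 32.8% and 28.3% in the TE, 21.9%, 25.3% and 21.9% in the ICM and 22.8%, 29.1% and 34.1% in BL. The 3 TE libraries lay above the 3 ICM libraries by 6.82 points on average, and the exact two-sided permutation p was 0.1, the smallest that 3 against 3 can give. The BL libraries ran from inside the ICM range to above the TE range. In limma, 413 of the 1119 domains (36.9%) were called higher in the TE, against 16.7% of all features, and 11 (0.983%) lower, against 18.5%. The median difference was 6.18 points over the domains and 0 over all features. With lists trimmed to one length 43 were lower, and with only TE and ICM in the fit 27. The count of 11 fell to 7, 1, 6, 2 and 4 without ICM replicates 1, 2 and 3 and TE replicates 1 and 3. The TE lists chose the domains, so the choice fixed their H3K27ac in the TE and left that in the ICM free. Domains chosen from ICM lists were not tested here.

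The largest ATAC difference was in D0849 (chr19:56647701-56677700), with 76.7%, 86.2% and 75.3% in the TE against 24.8%, 24.0% and 22.5% in the ICM (limma adjusted p = 0.00091). Its H3K27ac was balanced, at 80.8% and 80.2% against 75% and 63.3%. D0593 (chr14:960601-1003450) had ATAC coverage of 68.7%, 74.6% and 67.6% against 16.8%, 17.0% and 13.0% (limma adjusted p = 0.001). D1097 (chr29:40371951-40418700) had 65.8%, 77.5% and 63.0% against 12.6%, 18.4% and 15.9%. In D0849 a large difference in openness thus went with a much smaller one in H3K27ac, which was also higher in both TE libraries. In the opposite direction, D0234 (chr5:104128851-104193950), skewed to the ICM, had 30.8%, 37.5% and 30.5% in the TE against 44.0%, 57.1% and 48.1% in the ICM (limma adjusted p = 0.026).

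H3K4me3 in the domains also leaned to the TE. Mean coverage was 22.3% and 21.5% in the TE, 14.7% and 15.1% in the ICM, 21.8% and 23.3% in BL and 14.9% and 16.8% at MO. Earlier groups lay between 10.7% and 14.8%, apart from 8A with 8.60% and 7.64%. The H3K4me3 lists covered 159 Mb of the autosomes in GV, 45.8 Mb at MO, 38.1 Mb in the ICM and 45.8 Mb in the TE on average. Relative to the autosomes, domain coverage was 2.11 ± 0.0628 times (SD, n = 2) in GV and 3.58 ± 0.426 times at 8C. It was 8.61 ± 0.0957 times at MO, 9.73 ± 0.0539 times in the ICM and 11.9 ± 0.0391 times in the TE. Over the 8 groups without inhibitor the coverage differed (permutation test, p = 0.0054, adjusted over 4 tests 0.0072). In limma, 625 of 1047 domains tested (59.7%) were called higher in the TE than in the ICM, against 20.3% of all features, and 25 lower, against 5.91%. The other 72 had a mean coverage under 2% over the BL, ICM and TE libraries and were not tested. With lists trimmed to one length the counts were 294 higher and 56 lower, and the higher share of calls moved from 96.2% to 84.0%. Without TE replicate 1, 403 were called higher and 14 lower, and without ICM replicates 1 and 2, 13 and 15 were called lower.

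D0203 had H3K4me3 coverage of 52.6% and 54.6% in the TE and of 7.23% and 10.8% in the ICM (limma adjusted p = 0.00042), with 47.9% and 49.9% in BL and 5.02% and 8.64% at MO. In the same domain ATAC coverage was 48.8%, 53.6% and 49.8% in the TE against 20.2%, 21.02% and 19.4% in the ICM, and H3K27ac coverage was 74.4% and 72.9% against 23.5% and 21.2%. All 3 active readouts of D0203 were thus higher in the TE in every library. D0816 (chr19:41726801-41748050) had the greatest H3K4me3 difference, 56.7% and 61.9% against 6.35% and 8.71%. D0940 (chr22:59344451-59408050) had 57.9% and 55.0% against 9.20% and 14.2%. D0940 already had H3K4me3 over 45.0% or more of its length in every library from GV to 8C, and at MO this was 13.7% and 17.2%. Among the domains lower in the TE, D0211 (chr5:55627201-55662000) had 17.0% and 19.7% against 36.1% and 29.9% (limma adjusted p = 0.013).

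Of the 1047 domains tested for both ATAC and H3K4me3, which come from separate libraries, 370 were called higher in the TE for ATAC, 625 for H3K4me3 and 304 (29%) for both, against 7.34% for both over all features tested in both. The classes drawn from H3K27ac differed in the same readouts. ATAC was called higher in 179 of 201 domains skewed to the TE (89.1%), in 232 of 870 balanced domains (26.7%) and in 2 of 48 skewed to the ICM, with median differences of 12.6, 5.28 and -2.92 points. H3K4me3 was called higher in 153 of 175 tested (87.4%), 469 of 826 (56.8%) and 3 of 46, with medians of 8.92, 5.81 and -1.08 points. Across the 1119 domains the TE minus ICM difference in H3K27ac had a rank correlation of 0.68 with that in ATAC and of 0.41 with that in H3K4me3. The domains share their libraries, so these describe this set only.

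**Figure D3:**
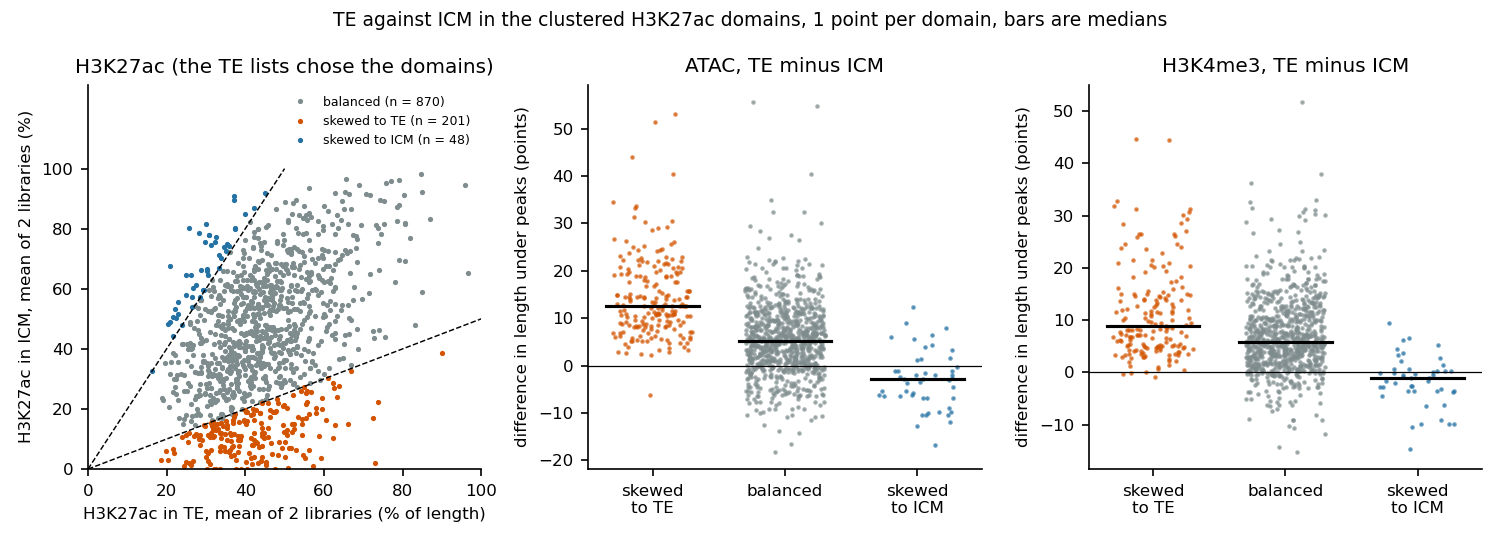
Left, mean H3K27ac coverage of each domain in the ICM against the TE (% of length), with dashed lines at ratios of 0.5 and 2. Middle and right, the TE minus ICM difference in ATAC and H3K4me3 coverage (percentage points, 1 point per tested domain, black bars medians), which has medians of 12.6 and 8.92 in the 201 domains skewed to the TE and below 0 in the 48 skewed to the ICM.

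Inside the domains, open chromatin and H3K4me3 sat on part of the H3K27ac stretches. All 1119 domains held 1 or more segments under ATAC peaks of all 3 TE libraries, with a median of 11. Segments under H3K4me3 peaks of both TE libraries occurred in 1055, with a median of 4. Both were counted anywhere in the domain, on or between the H3K27ac stretches. Of the 21538 H3K27ac stretches in domains, 51.5% were touched by ATAC peaks in all 3 TE libraries and 32.6% by H3K4me3 peaks in both. Of the 39371 stretches outside domains, 69.5% and 39.8% were. The stretches were not matched for length, and no test was run on these shares. The gaps between stretches were under ATAC peaks for 9.07% to 12.53% of their bases in the TE libraries.

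The 64 domains with no base under H3K4me3 peaks of both TE lists were smaller, with a median length of 33.95 kb against 41.7 kb in the rest. Mean ATAC coverage in the TE was 19.8% in them and 30.5% in the rest, and mean H3K27ac coverage was 39.2% and 44.5% in the TE, 32.1% and 44.3% in the ICM and 3.38% and 12.3% at 8C. Skewed to the TE were 20 of the 64 (31.3%) and 181 of the 1055 (17.2%). These values describe the subset, which H3K4me3 chose after its values were seen, and no test was run.

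Both repressive marks covered more of the domains than of the autosomes during cleavage, and less from the morula on. Mean H3K27me3 coverage of the domains was 8.40% ± 0.611 (SD, n = 2) in GV, 10.8% ± 2.02 at 2C, 17.1% ± 1.33 at 4C. The 8C libraries had 14.3% ± 0.0681. Later means were 3.41% ± 0.186 at MO, 1.01% ± 0.159 in BL, 2.35% ± 0.0871 in the ICM and 0.465% ± 0.0174 in the TE (permutation test over 8 groups, p = 2e-05, adjusted over 4 tests 8e-05). Relative to the autosomes this was 2.83 times at 4C and 0.0424 times in the TE. The lists as a whole did not shorten at that step, since they covered 138 Mb of the autosomes at 8C and 156 Mb at MO on average.

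H3K9me3 was already high in the oocyte, 2.53 times its autosome coverage against 0.879 times for H3K27me3, and fell at MO as well. Its domain coverage was 18.96% ± 0.530 (SD, n = 2) in GV, 19.6% ± 1.33 at 4C, 18.7% ± 0.567 at 8C, 2.33% ± 0.517 at MO, 1.00% ± 0.348 in the ICM and 0.309% ± 0.0817 in the TE. Relative to the autosomes it was 2.86 times at 4C, 0.448 times at MO and 0.0501 times in the TE. Unlike the H3K27me3 lists, those of H3K9me3 shortened from 168 Mb at 8C to 129 Mb at MO on average. In 8A, mean coverage was 16.8% ± 0.477 for H3K27me3 and 21.5% ± 0.323 for H3K9me3, both above 8C by a few points. H3K9me3 was not among the stage tests.

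Single domains were then counted where a mark covered 50% or more of the length in both libraries. H3K27me3 did so in 58 domains at GV (6.59% of all features), 50 at 2C (2.22%), 118 at 4C (10.5% of domains, 3.69% of all features) and 107 at 8C (9.56%, against 3.82%), and in 122 in 8A (4.08% of all features). From MO on it did so in 17 domains at MO (4.58% of all features), 3 in BL (9.66%), 13 in the ICM (8.44%) and 0 in the TE (9.31%). The domains thus went from above the background through cleavage to far below it. The other features are 20 kb tiles, whereas the median domain length was 41.05 kb. For both repressive marks a 50% limit can act differently on features of different length, and they were not matched for this.

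H3K9me3 covered 146 domains in this way at GV (13.0%, against 5.14% of all features), 100 at 2C (2.97% of all features), 153 at 4C (13.7%, against 4.79%) and 151 at 8C (13.5%, against 4.91%), and 180 in 8A (5.3% of all features). It covered 5 at MO (2.42% of all features), 2 in BL (2.91%), 1 in the ICM (2.71%) and 2 in the TE (4.9%). Of the 118 domains under H3K27me3 at 4C, 13 (11.02%) were covered at GV and 66 (55.9%) had no H3K27me3 there; in 20 kb tiles outside domains these shares were 25.1% and 51.7%. Of the 151 domains under H3K9me3 at 8C, 80 (52.98%) were covered at GV, 2C and 4C too, against 43.9% of such tiles. No test was run on these shares. At 4C the marks coincided, 110 domains being under both, which is 93.2% of those under H3K27me3; in 20 kb tiles outside domains the share was 88.4%.

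The 110 domains under both marks at 4C were compared with the 508 that had neither mark at that stage. Mean H3K27ac coverage in GV was 8.66% and 9.37% in the 110 and 16.6% and 17.8% in the 508. At 8C it was 6.27% and 5.21% against 13.2% and 12.6%. At MO the sets overlapped, with 42.4% and 34.6% against 35.4% and 34.4%. The 110 thus had less H3K27ac before MO in every library of GV and 8C, and in the ICM they had more, 52.4% and 48.8% against 39.1% and 38.4%. On chromosomes 18, 19 and 25 lay 26 of the 110 (23.6%) and 50 of the 508 (9.84%). Skewed to the TE were 14 of the 110 (12.7%) and 123 of the 508 (24.2%). The set was chosen by its 4C coverage and no test was run on these values.

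**Figure D4:**
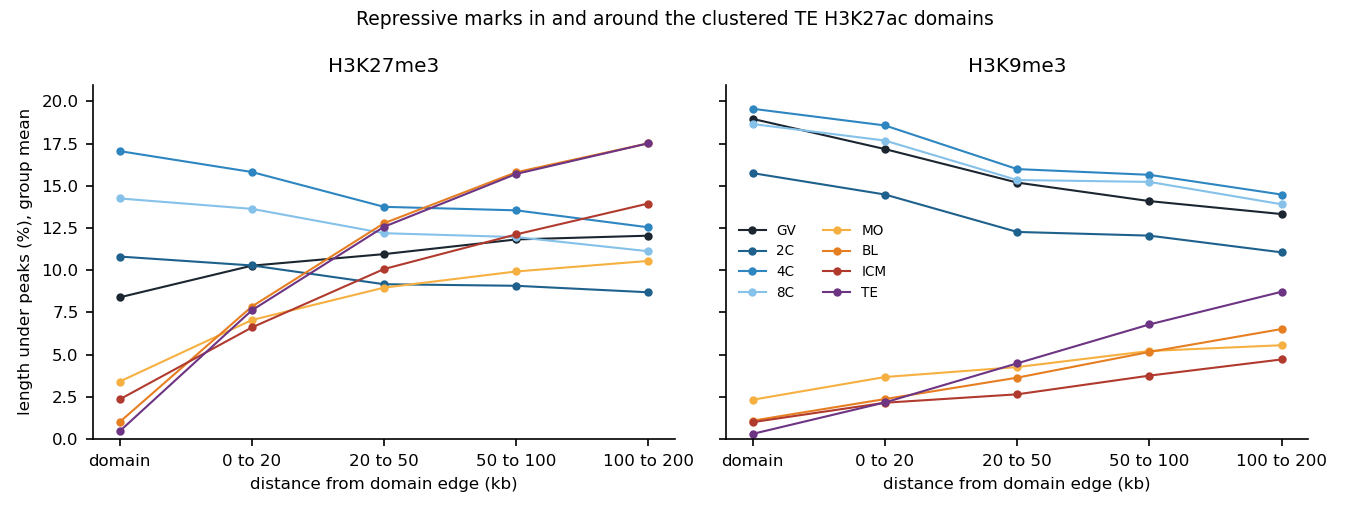
Mean percentage of length under H3K27me3 (left) and H3K9me3 (right) peaks within the domains and at increasing distance from their edges (kb), 1 line per group, points are means of 2 libraries. In the TE H3K27me3 rises from 0.465% in the domains to 17.5% at 100 to 200 kb, whereas at 4C it falls from 17.1% to 12.54%.

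The late depletion was deepest in the domains and eased with distance from them. In the TE, H3K27me3 covered 0.465% of the domains, 7.63% ± 0.0285 (SD, n = 2) of the first 20 kb outside, 12.6% ± 0.212 at 20 to 50 kb and 17.5% ± 0.288 at 100 to 200 kb. The value for the first 20 kb was below the autosome mean of 10.97%, and the last value was above it. At 4C the order was the reverse, with 17.1% in the domains and 15.8%, 13.8% and 12.54% at the same distances. H3K9me3 in the TE rose from 0.309% in the domains to 2.17% in the first 20 kb and 4.48% at 20 to 50 kb. Both flank values were below its autosome mean of 6.18%, and at 100 to 200 kb it reached 8.73%.

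H3K27me3 could be compared between the blastocyst tissues in few domains. Only 104 domains had mean coverage of 2% or more over the BL, ICM and TE libraries and were tested, and 1015 were not. A domain could pass through a single tissue, so the following counts describe and do not weigh the tissues. In limma 55 were called lower in the TE, against 8.53% of all features, and 7 higher, against 15.2%. With lists trimmed to one length, 14 were called lower and 0 higher. Of the 55, 43 had no H3K27me3 in either TE library, 33 were skewed to the TE in H3K27ac and 22 were balanced, and ATAC was higher in the TE in 33. The named domains with more H3K27me3 in the TE had low coverage: D0804 (chr19:34206751-34253050) had 12.1% and 10.8%, D0848 (chr19:56284401-56346700) had 8.99% and 9.95% and D1003 (chr25:2371551-2454700) had 13.2% and 12.51%, each against 0 in the ICM.

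D0716 (chr18:10743601-10770800) had H3K27me3 over 91.2% and 75% of its length in the ICM and none in the TE (limma adjusted p = 0.0025). It had H3K27ac over 34.7% and 30.3% in the TE and none in the ICM, and ATAC coverage of 28.3%, 27.02% and 27.9% against 5.33%, 8.09% and 7.72%. D0723 (chr18:25751401-25779750) had 88.0% and 91.5% H3K27me3 in the ICM against 0 in the TE (limma adjusted p = 0.00071), and H3K27ac of 46.2% and 48.7% in the TE against 0 in the ICM. It had carried the mark at MO, at 64.2% and 71.3%. D1027 (chr25:35604501-35635800) was wholly under H3K27me3 in both ICM libraries, at 100%, and at 15.3% and 16.0% in the TE. In D0716 and D0723 the tissues thus carried opposite marks, and D0723 and D1027 had H3K27me3 already at the morula.

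H3K9me3 could be tested in 86 domains. In limma 14 (16.3%) were called lower in the TE, against 11.6% of all features, and 2 (2.33%) higher, against 17.2%. Without ICM replicate 1, 23 were lower and 1 higher, and without ICM replicate 2, 1 was higher. D0127 (chr3:32149001-32213600) had 39.6% and 43.3% in the ICM and 0 in the TE (limma adjusted p = 0.0061), and H3K27me3 of 25.1% and 34.4% against 0. D0969 (chr23:45577801-45635100) had H3K9me3 of 31.4% and 37.3% against 0, and H3K27me3 of 86.4% and 82.5% against 10.5% and 11.2%. D0425 (chr10:26077201-26098500), the third named by the rule, had H3K9me3 of 75.6% and 33.3% against 0, and no H3K27me3 in either tissue. Among these named domains, lower H3K9me3 in the TE thus occurred with and without a difference in H3K27me3.

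A few domains carried H3K27me3 and H3K27ac in the TE. D1116 (chr29:49698851-49720150) had the most H3K27me3, 48.6% and 53.3%, beside H3K27ac of 60.8% and 62.4%. Its H3K27me3 was 46.7% and 55.2% in the ICM and 38.0% and 62.4% in GV, and it was one of the 2 with higher H3K9me3 in the TE, 29.8% in both libraries against 0. D0539 (chr11:105024301-105053350) had H3K27me3 of 34.8% and 50.9% in the TE after 95.9% in both MO libraries, and D0852 (chr19:61938201-61988900) had 23.7% in both. Whether the marks lie on the same alleles or cells in these pools was not tested.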

How the data were processed

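The deposited lists of 81 libraries hold, per peak, a position and a whole-number score whose meaning the file headers do not give; the score as deposited served only to order peaks when lists were trimmed. Per the submitters' processing notes the tools were BWA 0.7.9a, SAMtools 1.9, Picard 2.26.10, SICER, cutadapt 1.8.3 and Trim Galore 0.4.0, with the ARS-UCD1.2 build. The lists are named for epic2, so the caller, like its cutoff and control, is not given in the sources used here. Wider peaks, deeper libraries and a looser cutoff would all raise coverage.

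Groups came from the sample titles. Coverage was computed per library over the domains and over 120634 tiles of 20 kb that touch no domain. The limma 3.58.1 moderated test (trend, R 4.3.3) was applied to the arcsine square root of coverage over features with mean coverage of 2% or more in the libraries fitted: BL, ICM and TE for tissue contrasts, all H3K27ac groups except TE for stage contrasts. Benjamini-Hochberg adjustment ran over all features tested, with a threshold of 0.05. Domains share libraries and are not replicates. Library means were compared by permutation. Scripts used Python 3.11.15, NumPy 2.4.6, pandas 2.3.3 and SciPy 1.17.1 and were tested on simulated data. Alternatives were other joining and size limits, trimmed lists, only the compared groups, no coverage filter, a replicate block and each library left out.

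Members and classes were chosen with earlier results of these data known. Named domains are, by rule, the 5 with most shared TE sequence, the 3 longest, up to 3 per contrast and direction with the largest difference and no overlap of groups, and the extremes of ICM to TE ratio, TE H3K27me3 and GV H3K27ac.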

Additional observations from a re-analysis of the deposited data

How the results depend on the processing

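The number of domains moved with the rule: 571 with a join distance of 5 kb, 699 with 12 kb or more covered and 1918 with coverage in either TE list. Of 77 alternatives that left out no library, 62 kept their result within 1.5 times or on its side of the threshold and 15 moved it. The 62 include alternatives of the ATAC permutation test, whose smallest possible p is 0.1, so these could not cross the threshold. Trimming all lists to one covered length gave 43 domains lower for ATAC, 294 higher and 56 lower for H3K4me3, 0 higher and 14 lower for H3K27me3, 169 higher in 8A, 65 lower at MO, and 503 higher and 50 lower in BL. The more frequent direction thereby turned for BL against MO, from 46.8% to 91.0% higher, and for 8A against 8C, from 52.0% to 45.9% higher. Fitting only the 2 groups compared gave 27 lower for ATAC and 11 higher for H3K27me3. The cause was not tested. With 1 library left out, counts higher and lower in the TE ran from 295 to 382 and 1 to 9 for ATAC, 403 to 478 and 13 to 19 for H3K4me3, 5 to 8 and 40 to 47 for H3K27me3, and 1 to 2 and 11 to 23 for H3K9me3. They ran from 207 to 227 and 186 to 215 for 8A against 8C, 862 to 909 and 24 to 43 for MO against 8C, and 166 to 238 and 157 to 243 for BL against MO. The permutation p-values over stages ran from 1e-05 to 6e-05 for H3K27ac, 0.00127 to 0.00979 for H3K4me3 and 1e-05 to 4e-05 for H3K27me3. For ATAC in the TE against the ICM the permutation p ran from 0.1 to 0.2. With 1 library left out 0.1 stayed the smallest possible p, and 0.2 came without TE replicate 2. The labels link same-numbered libraries by their number only, and whether they share an embryo batch is not known. The correlation of their deviations was 0.0433, 0.124 and 0.153 for the ATAC pairs and -0.0817 to 0.208 for the marks. With the replicate block, H3K9me3 had 1 domain higher in the TE instead of 2, and the other counts stayed within 1.5 times, such as 407 higher for ATAC and 572 for H3K4me3. Depth was unknown, so a domain at 0 may lie under the detection limit of its library.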
